A study of Mus musculus with 4 samples.

Results

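The 78 genes described here are those whose symbol in the deposited count table is Mrpl or Mrps followed by a number, the symbols given to mitochondrial ribosomal protein genes of the large (L) and small (S) subunit. They were picked by symbol alone, from 55453 genes in the table. The RNA came from mouse oocytes still in prophase arrest (germinal vesicle stage). Control oocytes, labelled WT, gave 2 libraries, and oocytes with Parp12 knocked down gave 2 more; all were taken directly from the ovary. Parp12 is an ADP-ribosyltransferase gene of the PARP family. The sources used here do not give the strain, the age or the way Parp12 was knocked down. Nothing says that the libraries of a group came from separate animals, so a p-value here measures the spread between these samples alone, which may be technical.

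Libraries held 35805122 to 45230773 counts. The label check came first. Parp12 had 318.5 and 228.3 CPM (counts per 1000000, scaled by TMM factors) in control libraries, against 0.751 and 2.40 CPM in knockdown libraries. Its log2 fold change, knockdown over control, was -7.51 (SE 0.34), with an adjusted p of 1.27e-07 in edgeR's quasi-likelihood test with Benjamini-Hochberg adjustment, while limma-voom gave -7.73 with an adjusted p of 0.280. The oocyte markers were present throughout: all 12 were tested and their summed level was 24806 to 26549 CPM. Of 16 granulosa and cumulus markers, 8 were at 0 in all 4 libraries (Amh, Amhr2, Foxl2, Fst, Inhba, Inhbb, Krt18 and Krt19). The list summed to 447 and 495 CPM in control libraries, against 409 and 472 CPM after knockdown, most of it Serpine2. Over the 4 libraries Cyp19a1 was at 23.8 to 29.1 CPM, Kitl at 13.7 to 21.8 CPM and Fshr at 1.72 to 5.36 CPM. Theca and stroma markers summed to 2.58 to 6.40 CPM. Blood and endothelial markers summed to 105 to 115 CPM, most of it Pecam1, with Kdr at 8.29 to 14.2 CPM and Cdh5, Hba-a2 and Hbb-bt at 0.

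The mitochondrial ribosome, or mitoribosome, translates the few messenger RNAs of the mitochondrial genome, which encode membrane subunits of the respiratory chain and of ATP synthase. Its ribosomal RNAs come from mitochondrial DNA, while its proteins are encoded in the nucleus, made in the cytosol and imported. Some of these proteins have relatives in bacterial ribosomes, and the others are additions or forms particular to mitochondria. The oocyte supplies the mitochondria of the embryo, and its stored RNAs are made during growth, before the germinal vesicle stage ends.

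By these roles, 30 members encode large-subunit proteins with bacterial relatives and 21 encode large-subunit proteins particular to mitochondria. Another 16 encode small-subunit proteins with bacterial relatives and 10 encode mitochondria-specific small-subunit proteins. The symbols mislead for 3 genes. Mrps30 and Mrps18a encode proteins that sit in the large subunit and were counted there. Mrps36 encodes a component of the 2-oxoglutarate dehydrogenase complex of the citric acid cycle. It was kept apart from these classes, while counts, medians and sums over all members include it. The members lie on 17 chromosomes, with 11 of them on chromosome 11, and all 78 had the coordinates of GENCODE release 21 for mouse (mm10, GRCm38).

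Promoter windows from RefSeq (GRCm38.p6), each running from 250 bases before a gene's start to 50 bases after it, were found for 69 members, 75 windows in all. Both strands were searched for short motifs. CCGGAAG, a core letter string of ETS family factors, was in 26 of the 75 windows (34.7%), against 8.86% of all 32851 windows and 11.6% of 21263 windows of protein-coding genes. The palindrome bound by NRF1 (GCGCA, any base, then GCGC) was in 13 windows (17.3%), against 4.6% of all and 6.38% of protein-coding windows. ATGGCGGC, a string bound by YY1, was in 12 windows (16.0%), against 2.24% and 3.02%. The members' windows had a median GC content of 58.7% and a median of 21 CpG dinucleotides, where protein-coding windows had 56.3% and 13, so base composition differed as well. GGGCGG, the GC box, was in 52.0% of the members' windows, 35.7% of all and 46.2% of protein-coding windows. CCAAT was in 40.0%, 37.4% and 38.2%, and TATAAA in 6.67%, 13.6% and 12.6%, in the same order. A match describes the letters in the window and was not tested as a binding site.

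The stretch before the start is shown for 5 members: the member with the highest level by summed exon length (Mrpl34), the ribosome rescue factor Mrpl58, and the 3 large-subunit members with an unadjusted p under 0.05 in the comparison below (Mrpl12, Mrpl20 and Mrpl28). Capitals mark CCGGAAG in Mrpl34 and Mrpl58, and in Mrpl12 a match, on the other strand, to the NRF1 string with 1 base free. All 5 genes are on the plus strand, and the stretches are chr8:71464676-71464925 for Mrpl34, chr11:115403502-115403751 for Mrpl58, chr11:120484387-120484612 for Mrpl12, chr4:155802628-155802877 for Mrpl20 and chr17:26123253-26123499 for Mrpl28. They end before the start of the gene in both RefSeq and GENCODE.
Mrpl34: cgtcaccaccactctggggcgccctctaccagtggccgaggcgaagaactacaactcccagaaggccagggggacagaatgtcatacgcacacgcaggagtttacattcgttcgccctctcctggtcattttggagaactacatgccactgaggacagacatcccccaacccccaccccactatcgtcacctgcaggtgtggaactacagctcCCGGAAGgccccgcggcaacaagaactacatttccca
Mrpl58: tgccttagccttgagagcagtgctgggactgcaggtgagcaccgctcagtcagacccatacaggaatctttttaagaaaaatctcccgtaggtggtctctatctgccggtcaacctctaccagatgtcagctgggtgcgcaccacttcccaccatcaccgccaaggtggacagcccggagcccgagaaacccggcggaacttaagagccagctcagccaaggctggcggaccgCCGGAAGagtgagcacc
Mrpl12: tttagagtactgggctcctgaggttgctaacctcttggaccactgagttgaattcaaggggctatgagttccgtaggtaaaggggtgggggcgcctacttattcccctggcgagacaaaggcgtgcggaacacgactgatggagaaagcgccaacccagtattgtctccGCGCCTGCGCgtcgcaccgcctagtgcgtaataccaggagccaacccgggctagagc
Mrpl20: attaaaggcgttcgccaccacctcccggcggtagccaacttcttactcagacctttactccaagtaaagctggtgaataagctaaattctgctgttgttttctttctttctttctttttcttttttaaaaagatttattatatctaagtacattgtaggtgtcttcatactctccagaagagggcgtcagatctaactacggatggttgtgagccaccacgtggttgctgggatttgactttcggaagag
Mrpl28: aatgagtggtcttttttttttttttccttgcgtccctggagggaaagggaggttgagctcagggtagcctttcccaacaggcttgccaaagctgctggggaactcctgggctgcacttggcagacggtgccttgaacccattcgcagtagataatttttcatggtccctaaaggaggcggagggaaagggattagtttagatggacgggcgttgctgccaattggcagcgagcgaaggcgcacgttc
In Mrpl34 the motif begins 37 bases before the end of the stretch, and in Mrpl58 it begins 17 bases before. The stretches of Mrpl20 and Mrpl28 hold neither motif, and that of Mrpl20 has a GC content of 41.6%, against 53.0% to 58.8% in the other 4.

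In these oocytes the mitoribosomal genes formed a well-expressed set. Levels are compared between genes as TPM (counts divided by the summed exon length in the table, scaled to a total of 1000000 per library). The members' median was 40.8 TPM (quartiles 21.4 and 85.1), which is the 73.6th percentile of the 15868 genes tested, and 70 of 78 members lay above the median tested gene. As many as 68 members were between 10 and 200 TPM. Among members with counts in all 4 libraries, the highest was 335-fold above the lowest. The median was 133.1 TPM for cytosolic ribosomal proteins and 94.6 TPM for nuclear-encoded oxidative phosphorylation subunits, for which the mitoribosome makes the partner subunits.

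**Figure D1:**
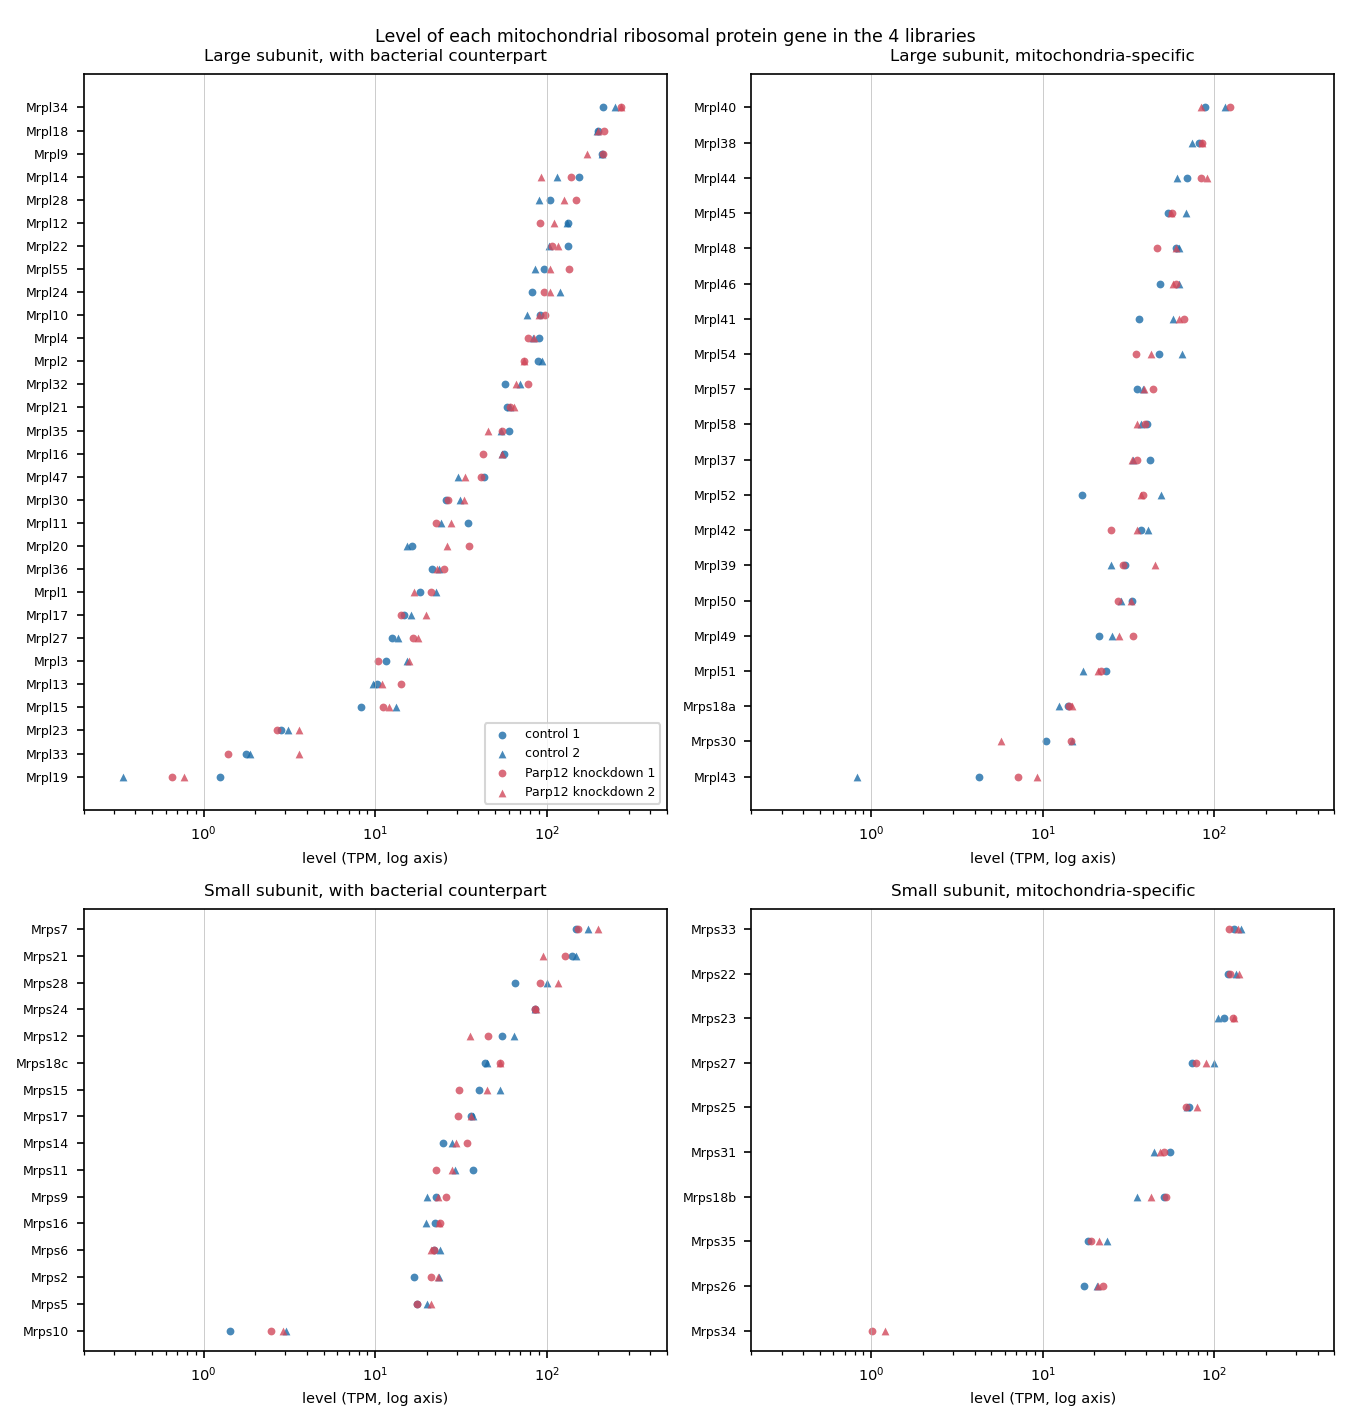
Level of each mitoribosomal member in TPM (log axis), by class, with controls in blue, knockdowns in red, replicate 1 as circles and replicate 2 as triangles; Mrps36 and Mrpl53 are left out, and the 0 counts of Mrps34 in the controls cannot be drawn. Most members lie between 10 and 200 TPM, and points of the same gene lie close together compared with the distance between genes.

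Mrpl34, a short protein of the large-subunit core, had the highest level by summed exon length, with 213 and 252 TPM in control libraries, against 272 and 270.1 TPM after knockdown. Mrpl18 and Mrpl9, also with bacterial relatives, followed at means of 203 and 202 TPM, so close that their libraries overlapped. In the small subunit Mrps7 (mean 168 TPM), Mrps33 (133 TPM), Mrps22 (129 TPM) and Mrps21 (128 TPM) led, and the libraries of the last 3 overlapped. Mitochondria-specific large-subunit members were led by Mrpl40 (103 TPM), Mrpl38 (81.1 TPM) and Mrpl44 (75.7 TPM). Mrps22 and Mrps33 are mitochondria-specific, while Mrps7 and Mrps21 have bacterial relatives.

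Class medians were 53.0 TPM for conserved large-subunit members, 36.2 TPM for mitochondria-specific large-subunit members, 32.0 TPM for conserved small-subunit members and 60.9 TPM for mitochondria-specific small-subunit members. The summed TPM of large-subunit members was 1.99 and 1.87 times that of small-subunit members in the controls, and 2.09 and 1.87 times in the knockdowns. This ratio overlapped between the groups.

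The lowest member of each class with a count was Mrpl19 (mean 0.751 TPM) and Mrpl43 (5.39 TPM) in the conserved and mitochondria-specific large-subunit classes, and Mrps10 (2.46 TPM) and Mrps34 (0.555 TPM) in those of the small subunit. Mrpl53 had 0 counts in every library. Its limit of 3 counts is a level of 0.0663 to 0.0838 CPM. These levels use exon lengths summed over all transcripts of a gene: with the length of the principal transcript instead, available for 71 members, 7 of the top 10 were the same genes. Mrpl34 then no longer led. Its length is 607 bases either way, while that of Mrps22 falls from 3991 to 1197 bases, which puts Mrps22 above it.

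As a set, the members, Mrps36 included, differed in summed level by less than the spread between replicates. They took 0.295% and 0.309% of the counts of the control libraries and 0.301% and 0.306% of the knockdown libraries. Their summed level was 3019 ± 67.1 CPM (SD, n = 2) for controls, against 3036 ± 36.2 CPM (SD, n = 2) for knockdowns, and the libraries overlapped. In bulk RNA, fewer cells of a type and less RNA per cell cannot be told apart.

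Of the 78 members 77 passed the filter on low counts and were tested, and Mrpl53 did not. None of the 77 passed at an adjusted p of 0.05 in edgeR's quasi-likelihood test, where 1 gene of 15868, Parp12, did (0.00630%). The smallest adjusted p of a member was 0.835. At an unadjusted p under 0.05 there were 4 members (5.19%), against a background of 5.51% of all tested genes. DESeq2 and limma-voom also called 0 members at an adjusted p of 0.05. Over all genes DESeq2 called 305 of 21358, while limma-voom called 0 of 15868 and so missed Parp12 as well. At an unadjusted p under 0.05 DESeq2 had 8 of 77 members, against 10.2% of all genes it tested. For limma-voom it was 5 of 77, against 4.71%. The 8 include Mrps34, which had 0 counts in the control libraries. DESeq2 gave its smallest member adjusted p, 0.0567, to Mrpl20.

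The members' log2 fold changes were small. Their median was 0.06 (quartiles -0.11 and 0.20), beside 0.0033 (quartiles -0.23 and 0.27) over all tested genes. Estimates were above 0 for 46 members and below 0 for 31, and 72 of 77 lay within 0.5 of 0 on the log2 scale. The 95% interval of the fold change lay inside 2-fold in either direction for 60 members (77.9%), where this held for 46.7% of all tested genes. Among the 68 members over 10 CPM it did so for 59. A 2-fold difference was thus outside the interval for most members, and with 2 libraries a group no smaller one reached the adjusted threshold. The median log2 fold change of the members was 0.04 without control replicate 1, 0.09 without control replicate 2, 0.07 without knockdown replicate 1 and 0.04 without knockdown replicate 2.

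**Figure D2:**
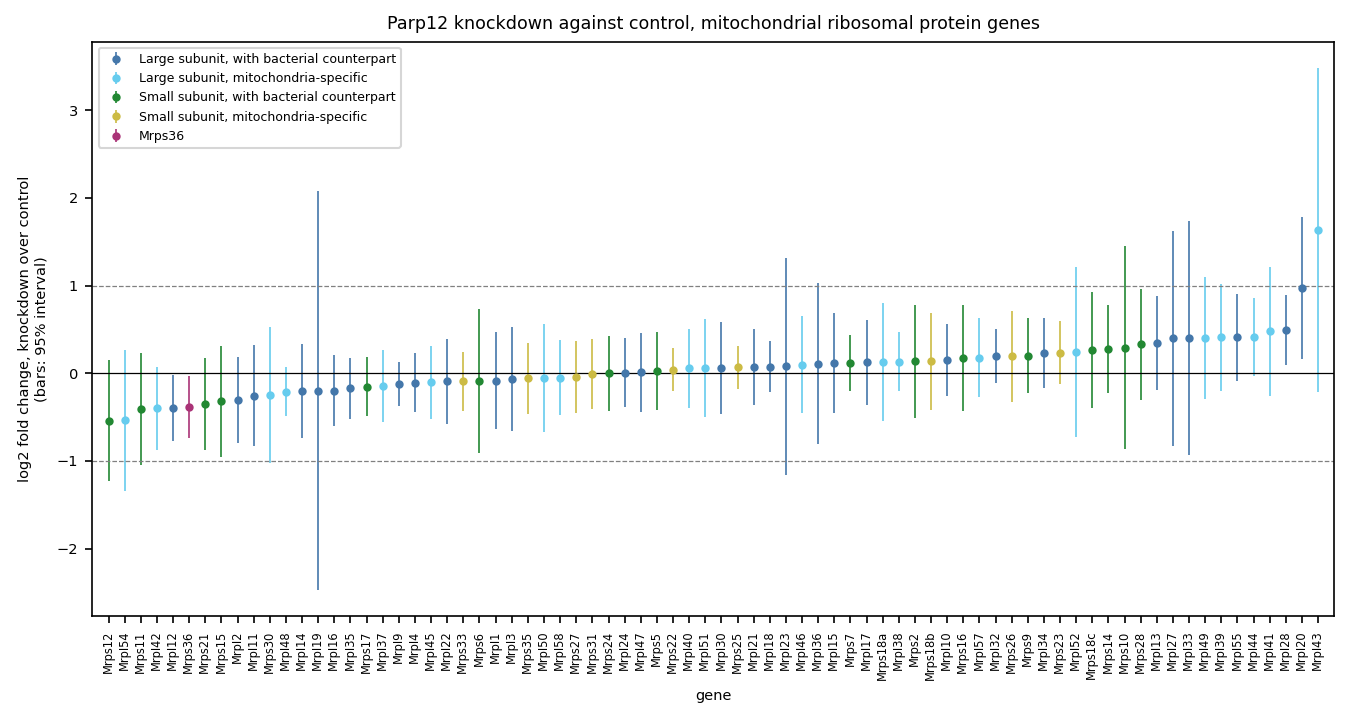
Log2 fold change (knockdown over control) of each tested member with its 95% interval, ordered by value and coloured by class; dashed lines mark 2-fold, and Mrps34, whose controls are at 0 counts, is left out. Intervals cross 0 for all but Mrpl20, Mrpl28, Mrpl12 and Mrps36, and the widest belong to Mrpl19 and Mrpl43, which have few counts.

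For most members, replicates of a group differed by more than the groups did. For each of the 76 members with counts in all libraries, the log2 gap between libraries of the same group was set beside the difference between the groups in mean log2 CPM. The larger replicate gap exceeded the group difference for 58 members (76.3%), and the same held for 77.4% of 13314 tested genes with counts in all libraries. The median of the larger gap was 0.339, and the median group difference was 0.162. The knockdown libraries lay entirely above the controls for 21 members and entirely below for 11, together 41.6% of those tested. The 21 include Mrps34, which passed the low-count filter only through its knockdown libraries, and are 20 without it. The background is 35.0% of all tested genes, 17.9% above and 17.1% below. With any 1 library left out, 28 to 36 members lay above and 19 to 24 below, since 1 library against 2 separates more often. The share of all tested genes in those settings is not given here, so these counts have no background to be read against.

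The 4 members at an unadjusted p under 0.05 were Mrpl20 and Mrpl28, with higher values in the knockdowns, and Mrpl12 and Mrps36, with lower values. Mrpl20 (chromosome 4, 155802878 to 155809975, plus strand) encodes a large-subunit protein whose bacterial relative takes part early in subunit assembly. It had 7.96 and 7.37 CPM in control libraries and 17.1 and 12.8 CPM in knockdown libraries. Both knockdown libraries were above both controls, and the knockdowns differed more from each other than the controls did. Its log2 fold change was 0.97, with an SE of 0.38, a 95% interval of 0.17 to 1.78 and an adjusted p of 0.835 in edgeR's quasi-likelihood test, the farthest from 0 of any member over 5 CPM.

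Mrpl28 (chromosome 17, 26123500 to 26126613, plus strand) encodes another large-subunit protein with a bacterial relative. It had 42.1 and 36.2 CPM in control libraries, against 59.3 and 50.9 CPM after knockdown, so the groups did not overlap. The fit gave a log2 fold change of 0.50 with an SE of 0.19, a 95% interval of 0.10 to 0.90 and an adjusted p of 0.835 by the same edgeR test. Mrpl20 and Mrpl28 share no exon base with another gene.

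Mrpl12 (chromosome 11, 120484613 to 120489065, plus strand) encodes the mitochondrial L7/L12 protein, which forms the flexible stalk where translation factors bind. Control libraries had 59.4 and 58.1 CPM and knockdown libraries 40.9 and 49.0 CPM, again without overlap. Here the log2 fold change was -0.40, the SE 0.17, the 95% interval -0.77 to -0.02 and the adjusted p 0.835 by the edgeR test. The stalk base proteins Mrpl10 and Mrpl11 had estimates of opposite sign and overlapped between groups: Mrpl10, to which the stalk protein binds, had a log2 fold change of 0.15, and Mrpl11 one of -0.25.

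Mrps36 (chromosome 13, 100735955 to 100744659, minus strand), the 2-oxoglutarate dehydrogenase component, had 63.3 and 71.8 CPM in control libraries and 50.6 and 52.8 CPM in knockdown libraries. Both knockdowns were below both controls. Its log2 fold change of -0.39 had an SE of 0.16, a 95% interval of -0.73 to -0.04 and an adjusted p of 0.835 by the edgeR test. Of its exon stretches of 50 bases, 17.3% also occur in other genes, so reads could be split between copies.

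**Figure D3:**
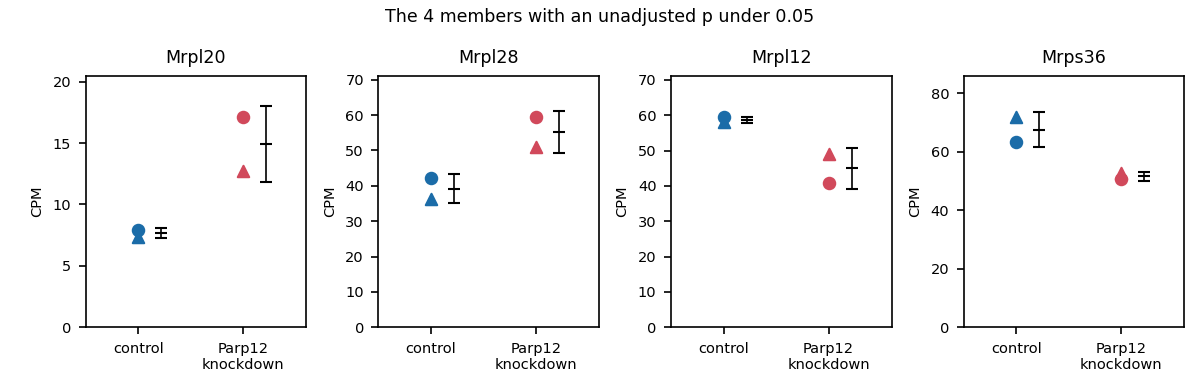
CPM in each library of the 4 members with an unadjusted p under 0.05; circles are replicate 1, triangles replicate 2, and bars the group mean ± SD (n = 2). Knockdown libraries lie above controls for Mrpl20 and Mrpl28 and below them for Mrpl12 and Mrps36.

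Which members passed the unadjusted 0.05 depended on the libraries. With 1 library left out, 1 group is a single library, so members passing are not counted here. As each library was left out, the log2 fold changes of Mrpl20, Mrpl28, Mrpl12 and Mrps36 kept their sign. That of Mrpl20 ranged from 0.73 to 1.15 and that of Mrpl12 from -0.52 to -0.26.

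Among large-subunit members with bacterial relatives, 18 of 30 estimates were above 0 and the median was 0.07. The knockdowns lay above the controls for 7 (23.3%) and below for 2 (6.67%), against 17.9% and 17.1% of all tested genes. The 2 were Mrpl12 and Mrpl2. Mrpl2, whose bacterial relative lies at the peptidyl transferase centre, had 30.4 and 31.8 CPM in control libraries against 25 and 25.2 CPM after knockdown, with a log2 fold change of -0.31 (95% interval -0.80 to 0.18). The groups stood apart and the replicates were close, yet the edgeR interval, which uses the spread of genes at a similar level, crossed 0. Mrpl34 stood the other way, at 37.8 and 44.3 CPM against 48.2 and 47.8 CPM, with a log2 fold change of 0.23. Mrpl18 and Mrpl9 overlapped between groups, at 0.08 and -0.12.

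Mitochondria-specific large-subunit members had 12 of 20 estimates above 0 and a median of 0.08. Knockdowns lay above the controls for 7 (35%) and below for 3 (15%), beside 17.9% and 17.1% of all tested genes. Mrpl44, an RNase III-like protein, had 33.3 and 28.7 CPM in control libraries, against 39.8 and 43.3 CPM after knockdown. Its groups did not overlap, and the log2 fold change was 0.41 (95% interval -0.03 to 0.86). Mrpl42 lay the other way, with 40.3 and 44.1 CPM against 26.9 and 37.8 CPM, and a log2 fold change of -0.40 (95% interval -0.87 to 0.07). Mrpl48 had 142 and 148 CPM against 110.5 and 141.6 CPM, where a single knockdown library made most of the difference, and a log2 fold change of -0.21.

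Members of this class at the tunnel exit and in ribosome rescue showed no separation. Mrpl45, which anchors the tunnel exit to the inner membrane, had 40.6 and 51.2 CPM in control libraries against 42.8 and 42.5 CPM after knockdown, with a log2 fold change of -0.10 (95% interval -0.52 to 0.32). Mrpl58, a peptidyl-tRNA hydrolase that is built into the large subunit, had 39.4 and 36.1 CPM against 38.4 and 34.4 CPM, a log2 fold change of -0.05 (95% interval -0.48 to 0.38). For both genes the libraries overlapped. Mrps30, in the large subunit despite its symbol, had 20.2 and 28.7 CPM in control libraries and 28.5 and 11.1 CPM in knockdown libraries, so that the knockdown libraries stood farther apart than the groups.

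Small-subunit members with bacterial relatives had 10 of 16 estimates above 0 and a median of 0.07, with knockdowns above the controls for 4 (25%) and below for 5 (31.2%), beside the same 17.9% and 17.1%. Mrps12, a decoding-centre protein, had 16.7 and 19.4 CPM in control libraries, against 13.8 and 10.8 CPM after knockdown. Its groups did not overlap, and the log2 fold change was -0.54 (95% interval -1.23 to 0.15). Mrps21 had 30.4 and 31.7 CPM against 27.5 and 20.6 CPM, a log2 fold change of -0.35. Mrps14, a conserved protein of the small-subunit head, had 23.9 and 26.5 CPM in control libraries and 32.4 and 28.1 CPM in knockdown libraries, with a log2 fold change of 0.28.

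The 10 mitochondria-specific small-subunit members had a median of 0.05, and 9 of their intervals lay inside 2-fold. Mrps22 had 141.0 and 155.9 CPM in control libraries against 143 and 163 CPM after knockdown, with a log2 fold change of 0.04 (95% interval -0.20 to 0.28). Mrps33 and Mrps35 also overlapped, at -0.09 and -0.06. Knockdowns lay above the controls for 3 (30%) and below for 0, beside 17.9% and 17.1% of all tested genes. The 3 were Mrps34, which was tested only through its knockdown counts, Mrps26 and Mrps23. Mrps23 had 52.2 and 47.3 CPM in control libraries against 58.4 and 59.0 CPM after knockdown. Its log2 fold change was 0.24 (95% interval -0.12 to 0.59).

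The paralogs Mrps18a, Mrps18b and Mrps18c encode proteins of a family that is related to a bacterial ribosomal protein. Mrps18c was classed with the bacterial relatives, and Mrps18a and Mrps18b as forms particular to mitochondria. Mrps18c was at 13.8 and 14.1 CPM in control libraries, against 16.7 and 16.8 CPM after knockdown, close within each group and apart between them, with a log2 fold change of 0.27 (95% interval -0.39 to 0.93). Mrps18a was at 15.1 and 13.3 CPM against 15.4 and 15.9 CPM, and Mrps18b at 31.1 and 21.4 CPM against 31.6 and 26.0 CPM. Their log2 fold changes were 0.13 and 0.14, and Mrps18b overlapped between groups.

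Members with the promoter string CCGGAAG were set beside those without it. Over the 25 tested members with it the median log2 fold change was 0.12, and 0 of them were at an unadjusted p under 0.05. The 43 without it had a median of 0.01, and the 4 members at that threshold were among them. The share over all tested genes was 5.51%, and the counts were not compared by a test. Median levels were 42.2 and 42.4 TPM. The difference between these medians was not tested.

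A start shared with a neighbour was common. The start of another gene on the other strand was sought from 1000 bases upstream of a gene's start to 100 bases downstream. Of 76 members at 1 CPM or more, 17 (22.4%) had such a neighbour at that level. This held for 10.9% of 11618 protein-coding genes at that level. The closest starts were those of Mrpl54 and Apba3, 26 bases apart, with log2 fold changes of -0.54 and -2.77. Mrps18c and Helq, a DNA helicase gene, start 29 bases apart, and their log2 fold changes were 0.27 and -0.42. Mrpl36 and Ndufs6, a complex I subunit gene, also start 29 bases apart, at 0.11 and -0.02, while Mrps12 and Sars2, the mitochondrial seryl-tRNA synthetase gene, start 172 bases apart, at -0.54 and -0.65.

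Several members share exon bases with other genes, and the sources used here do not say how reads over shared bases, or on either strand, were counted. In the annotation 45 members share no exon base, and 6 share over 30% of theirs. The 6 had a median of 3.07 TPM, against 48.9 TPM for members sharing less and 42.4 TPM for those sharing none. Whether shared bases account for low values was not tested.

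**Figure D4:**
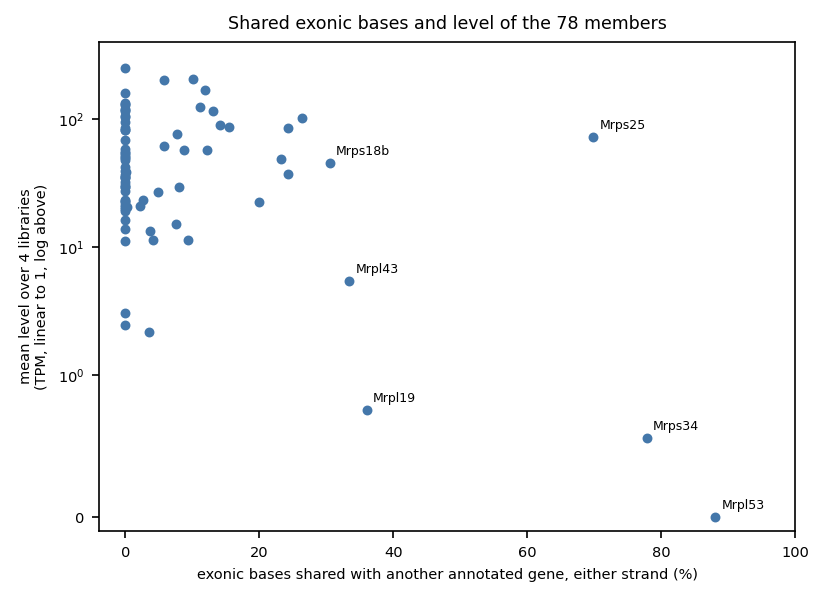
Mean level in TPM (axis linear up to 1 and log above) against the percent of a member's exon bases that another gene shares, 1 point per member. Of the 6 members with over 30% shared, Mrpl53, Mrps34, Mrpl19 and Mrpl43 are near the bottom, while Mrps25 and Mrps18b are not.

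Mrps34 is the case where counts were absent from a group. Control libraries held 0 and 0 counts of it, and knockdown libraries 26 and 26. Against a limit of 3 counts in each control library, the knockdown level of 0.668 CPM was at least 9.57-fold higher. The gene passed the filter on low counts only through the knockdown libraries, so it had to differ, and its fold and its place among the separated groups are descriptions. Of its exon bases 77.8% are shared, with Mapk8ip3 on the other strand (2257 and 2274 counts in the controls, 2506 and 2114 in the knockdowns) and with Nme3 on the same strand (0 counts in all libraries).

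Mrpl53 shares 88.0% of its exon bases, mostly with Gm42688 on the same strand, and both were at 0 counts in every library. Mrpl43 shares 33.4%, with Twnk, the mitochondrial helicase gene, on the other strand. It had 1.90 and 0.364 CPM in control libraries against 3.19 and 4.10 CPM after knockdown, with a log2 fold change of 1.63 (95% interval -0.22 to 3.48). The groups did not overlap, and the controls differed from each other more than the knockdowns did. Its log2 fold change was 3.30 without control replicate 1 and 0.93 without control replicate 2. Mrpl19 shares 36%, with Gcfc2, and had 1.99 and 0.533 CPM against 1.03 and 1.23 CPM. Mrps25 shares 69.8%, with Nr2c2, and was still at a mean of 72.0 TPM, with a log2 fold change of 0.07.

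Of mitoribosomal proteins under other names 5 were tested. None was at an unadjusted p under 0.05, beside 5.51% of all tested genes, and none had groups that stood apart, beside 35.0%. The median log2 fold change of the 5 was 0.14. Dap3, a GTP-binding small-subunit protein, had 196.9 and 187.5 CPM in control libraries against 180.1 and 203.4 CPM after knockdown, with a log2 fold change of -0.01 (95% interval -0.23 to 0.21). Ptcd3, a pentatricopeptide repeat protein of the small subunit, Chchd1, Aurkaip1 and Gadd45gip1 had log2 fold changes of 0.25, 0.38, 0.14 and 0.02.

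The ribosomal RNAs that these proteins bind stood lower in the knockdowns, without an adjusted call. The small-subunit RNA mt-Rnr1 had 355.2 and 393.3 CPM in control libraries and 304.7 and 263.1 CPM in knockdown libraries. The large-subunit RNA mt-Rnr2 had 504.2 and 523.5 CPM against 426.9 and 393.4 CPM. For both, every knockdown library was below every control, which held for 17.1% of all tested genes. The log2 fold changes of mt-Rnr1 and mt-Rnr2 were -0.39 and -0.32, with adjusted p of 0.835 by the edgeR test. Their unadjusted p in that test were 0.00098 and 0.00089, both under 0.05 with lower values (background 2.57%). Of 13 mitochondrially encoded messenger RNAs, 7 were tested, with a median log2 fold change of 0.46. Of the 7, 6 were at an unadjusted p under 0.05 (background 5.51%), all with higher values in the knockdowns (background 2.94%). The libraries were made with poly(A) beads, the other 6 such messenger RNAs had 0 counts in every library, and mitochondrial sequences have near copies in the nuclear genome, so levels of these genes are uncertain.

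In the rest of the mitochondrial translation pathway, few genes were at an unadjusted p under 0.05. Of 16 tested translation factors, 1 was at an unadjusted p under 0.05 with a higher value (background 2.94%) and 0 with a lower value (background 2.57%). This was Qrsl1, a subunit of the enzyme that makes mitochondrial glutaminyl-tRNA, with 5.71 and 6.81 CPM in control libraries, 12.7 and 11.2 CPM after knockdown and a log2 fold change of 0.95. Of 24 genes of mitoribosome assembly and rRNA modification, 1 was lower, the assembly factor Mpv17l2 (5.49 and 9.45 CPM against 2.77 and 3.46 CPM, log2 fold change -1.26).

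Of 16 mitochondrial aminoacyl-tRNA synthetases, 1 was lower at that threshold. It was Lars2, the leucyl enzyme, with 146.2 and 154.0 CPM in control libraries, against 126.1 and 85.0 CPM after knockdown, and a log2 fold change of -0.49. Of 20 genes of mitochondrial transcription and RNA processing, 1 was higher, the transcription factor Tfb2m (14.5 and 9.92 CPM against 20.1 and 21.2 CPM, log2 fold change 0.75), 31.9% of whose exon stretches also occur in Gm1818. List medians were 0.09, -0.01, 0.03 and 0.05 in the order named, and the adjusted p of all 4 genes was 0.835 by the edgeR test.

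Cytosolic ribosomal proteins and nuclear-encoded oxidative phosphorylation subunits are given for scale. Of 84 tested cytosolic ribosomal proteins, 2 (2.38%) were at an unadjusted p under 0.05, beside 5.51% of all tested genes. Both had higher values (2.94% of all), the median log2 fold change was 0.00032, and 75 genes had their interval inside 2-fold. Of 78 tested oxidative phosphorylation subunits, 5 (6.41%) were at that threshold, all with higher values, with a median of 0.03, and 66 intervals lay inside 2-fold. Differences between these medians and the members' 0.06 were not tested.

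**Figure D5:**
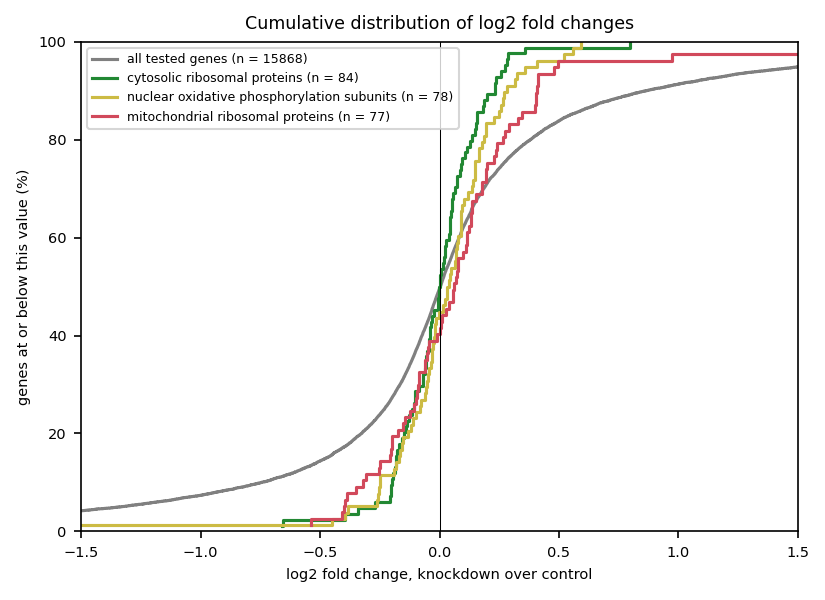
Cumulative percent of genes at or below each log2 fold change (knockdown over control) for mitoribosomal members, cytosolic ribosomal proteins, oxidative phosphorylation subunits and all tested genes. All 4 centre near 0, with medians of 0.06, 0.00032, 0.03 and 0.0033.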

How the data were processed

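Per the labels' protocols, RNA of mouse oocytes was extracted with a micro column kit, poly(A) selected and made into Illumina libraries. Tools listed by the submitters' processing notes, without their roles, are featureCounts 2.0.0, STAR 2.7.5b, Trim Galore 0.6.4 and DESeq2 1.28.1, with the build mm10. The table the authors deposited holds raw read counts per gene for 2 control and 2 knockdown libraries, with exon coordinates and lengths; the sources used here do not state the setting for strand or for reads over shared exons. Entries without a gene name numbered 0.

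The analysis used edgeR 4.0.16 in R 4.3.3: filterByExpr defaults (minimum count 10, total 15) left 15868 genes, TMM factors were 0.991 to 1.01, and groups were compared with glmQLFit (robust, current method) and glmQLFTest, two-sided, group as the only term, Benjamini-Hochberg adjusted over all tested genes at 0.05. SEs were taken from the F statistic, and 95% intervals from the t quantile. CPM used TMM-scaled totals, and TPM the deposited exon lengths. Intervals and limits cover counting error or spread between these libraries only. A chi-square of replicate counts gave 34.7 (controls) and 30 (knockdowns) per degree of freedom, so no library was a copy of another. Alternatives were other scalings and filters, the replicate block, each library left out, DESeq2 1.42.0, limma-voom (limma 3.58.1), and, added after seeing the data, edgeR's legacy fit and principal transcript lengths. The fit was tested on simulated data.

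The members and gene lists were chosen with earlier results of these data known. Named in the text are Parp12; per structural class the 3 highest and the lowest members by level and the 2 smallest p in each direction; members at an unadjusted p under 0.05 or not tested; members with a textbook role or a misleading symbol; the 5 proteins under other names; both mitochondrial rRNAs; and the smallest p of each other mitochondrial translation list. Neighbours and Mrps25 were named after their values were seen.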

Additional observations from a re-analysis of the deposited data

How the results depend on the processing

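The number of members called at an adjusted p of 0.05 was 0 under every alternative run with all 4 libraries. The same 4 members were at an unadjusted p under 0.05 under the other scalings, both other filters, the legacy fit and the replicate block. DESeq2 placed 8 members there, 5 of them with higher values, against 10.2% of all genes it tested. Parp12 kept its log2 fold change with limma-voom (-7.73) but not its call (adjusted p 0.280), and it ranged from -8.51 to -6.83 as each library was left out. Over all genes the adjusted threshold was passed by 1 gene here, 305 with DESeq2, 8 with the 1 CPM filter and 0 with limma-voom, and the unadjusted one by 874 here and 2173 with DESeq2. With 1 library left out, the lone library was taken to have the spread of the other group: members with higher values at the unadjusted threshold then numbered 1 to 2 and with lower values 0 to 3, the members' median log2 fold change was 0.0376 to 0.0923, and members with groups apart numbered 28 to 36 (higher) and 19 to 24 (lower).

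With the replicate block the members' median was 0.064, with 0 called and 4 at the unadjusted threshold, while the count over all genes went from 874 to 686. Deviations of libraries with the same number were not correlated (r = 0.0143 over 8430 genes, across genes, which are not independent replicates), so the numbers were not taken to pair the samples, and the block changed no call.

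Of 441 log2 fold changes of 34 named members recomputed under alternatives, 20 took the other sign, and the cause was not tested. None of these was past the threshold, and all but Mrpl19 with limma-voom (0.067) came from leaving out 1 library. As each library was left out, Mrpl19 ranged from -0.82 to 1.07, Mrpl40 from -0.26 to 0.29, Mrps10 from -0.17 to 0.90, Mrps22 from -0.052 to 0.13, Mrpl11 from -0.49 to 0.052 and Mrpl58 from -0.13 to 0.022. Likewise Mrps35 ranged from -0.24 to 0.13, Mrpl45 from -0.26 to 0.071, Mrps18b from -0.098 to 0.44, Mrps30 from -1.13 to 0.23, Mrps33 from -0.18 to 0.0018, Mrpl9 from -0.30 to 0.018 and Mrps7 from -0.075 to 0.31. Depth limits the 9 tested members under 10 CPM.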
